A study of Mus musculus with 29 samples.

Results

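KDM5-C70 (C70), an inhibitor of the KDM5 histone demethylases, was compared with DMSO vehicle 1 day after adipogenic induction of 3T3-L1 cells. These libraries were taken by their labels, day 1 with C70 pretreatment or day 1 with DMSO, and number 7 (3 vehicle and 4 C70) of 29 in the series. The 3T3-L1 line is an established line of mouse embryonic fibroblasts and turns into white adipocytes in culture. Cells received 10 µM C70 or DMSO from day -2 to day 0, when the compound was removed. Both groups were then given the same differentiation medium, with dexamethasone, insulin, IBMX and a PPARγ agonist, so the cells compared here had been without C70 for 1 day. RNA was also sequenced at days 0, 2 and 7, and those libraries entered the fit and the comparisons of the C70 effect between days. The question put to these libraries is which transcripts of the first day of induction differ after transient KDM5 inhibition. The labels do not say whether replicates were separate cultures, so the P values measure the spread between these libraries, which may be technical.

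The KDM5 enzymes remove methyl groups from lysine 4 of histone H3, a mark that is found at active promoters, and C70 blocks that activity. In confluent 3T3-L1 cells, the hormone mixture sets off a first wave of transcription factors, among them C/EBPβ and C/EBPδ, which in turn raise PPARγ and C/EBPα, the factors that drive the adipocyte programme. During the first day after induction the arrested cells re-enter the cell cycle, a step known as mitotic clonal expansion, before lipid synthesis and storage genes reach high levels.

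Total counts were 19978362 to 20268764 in the vehicle libraries and 16433737 to 20162888 in the C70 libraries, and levels are given as counts scaled to the library size (CPM). The first principal component of the 7 libraries held 73.9% of their variance and separated C70 from vehicle. Vehicle replicate 1 stood slightly apart from the other two (chi-square per degree of freedom over genes 9.27 and 12.7, against 3.68 between replicates 2 and 3 and 2.9 to 5.6 between C70 replicates). Gene positions are GRCm38 spans from the GENCODE annotation. Of 11959 genes, 1631 (13.6%) were higher and 933 (7.8%) lower after C70, where a call needed both an adjusted P below 0.05 (edgeR, quasi-likelihood) and a log2 fold change of more than 0.32 in size, and "rose", "fell" and "called" below refer to these limits. With the libraries scaled by total count alone, the numbers were 1391 higher and 1369 lower, so the share of called genes that were higher was 63.6% in the first case and 50.4% in the second. Without vehicle replicate 1, 1666 were higher and 1029 lower. The adjusted P value alone was under 0.05 for 4865 genes (40.7%). In 2918 genes (24.4%) all 4 C70 libraries lay above all 3 vehicle libraries, and in 2852 (23.8%) all lay below. Among called genes a lack of overlap was the rule, since the groups overlapped in only 65 of the 1631 higher and 56 of the 933 lower genes. Large rises were more numerous than large falls. 895 genes rose and 196 fell by more than 1.5-fold, 380 and 26 by more than 2-fold, and 47 and 1 by more than 4-fold. The genes that rose had lower levels, with a median of 9.7 CPM in vehicle against 22.7 CPM for those that fell and 29.4 CPM for all genes. Of the 2564 called genes, 1128 overlap an annotated gene on the opposite strand (Ptprv, Syt12, Ogn, Gpd1, G0s2, Acsl1, Gpat3, Pparg, Cyp51 and Ccnd1 among those below), and whether the counting used the strand is not given in the sources used here.

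**Figure D1:**
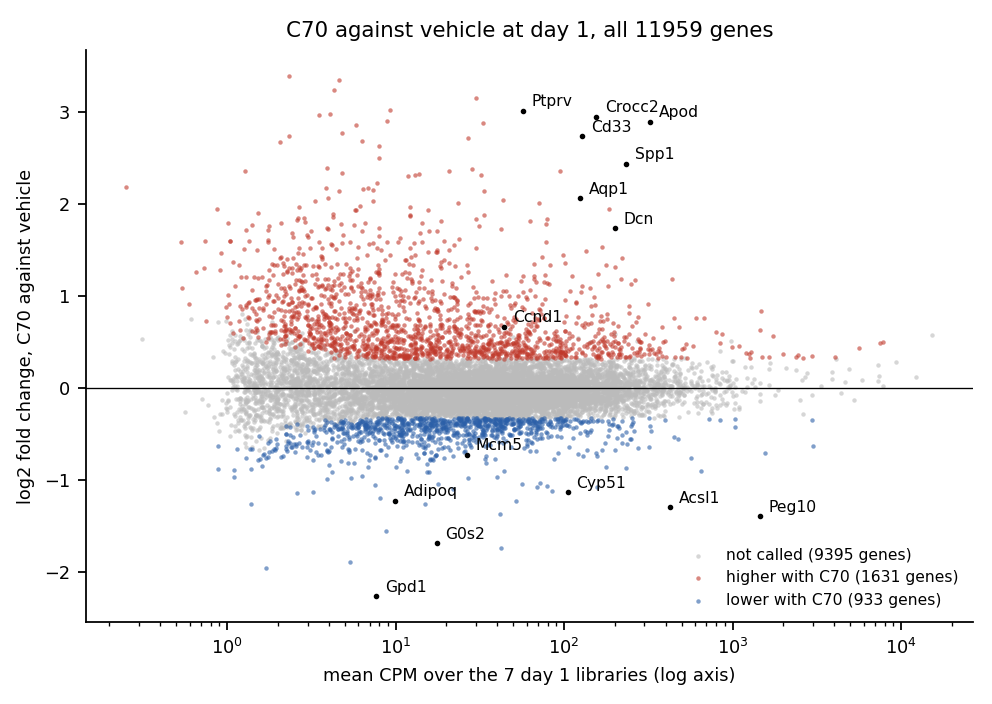
Mean CPM over the 7 day 1 libraries (x axis, log scale) against the log2 fold change of C70 over vehicle (y axis) for each of 11959 genes, with the 1631 higher genes in red, the 933 lower genes in blue and all others in grey. Rises reach further from 0 than falls, and Gpd1, at -2.26, is the lowest point.

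The genes with the largest rises were taken from called genes above the median level of all genes and without overlap between groups. They were Ptprv, Cdsn, Crocc2, Apod, Eno3, Cd33, Spp1, Il1rl1, Syt12, Ogn, Aqp1 and Ctla2a. Ptprv, a receptor-type tyrosine phosphatase (chr1:135108497-135132594), had 11.3, 10.5 and 12 CPM in the vehicle libraries and 87.8, 93.8, 90.8 and 91.5 CPM in the C70 libraries (log2 fold change 3.02, SE 0.077, edgeR adjusted P = 3.65e-23). Apod, apolipoprotein D, a small lipid-binding secreted protein (chr16:31296192-31314808), went from 66.1, 67.6 and 72.8 CPM to 525, 459.5, 534 and 532 CPM (log2 fold change 2.90, SE 0.15, edgeR adjusted P = 7.76e-16). Crocc2, a relative of the ciliary rootlet protein rootletin (chr1:93168725-93231072), went from 30.8, 33.9 and 31.2 CPM to 236, 217, 266 and 268 CPM (log2 fold change 2.95, SE 0.082, edgeR adjusted P = 3.33e-22). In these 3 genes the C70 libraries lay far above the vehicle libraries, and the lack of overlap was a condition of the choice. Cd33, a sialic acid-binding receptor (chr7:43524216-43544428), had 28, 29.3 and 33.2 CPM in vehicle and 211, 186, 194 and 215 CPM with C70 (log2 fold change 2.74, SE 0.082, edgeR adjusted P = 1.4e-21). Il1rl1, the receptor for interleukin 33 (chr1:40429570-40465415), had 31, 26.3 and 27.2 CPM and 142, 150.2, 138 and 147 CPM (log2 fold change 2.36, SE 0.066, edgeR adjusted P = 3.33e-22). Spp1, osteopontin, a secreted matrix phosphoprotein (chr5:104435118-104441050), had 75.6, 63.6 and 59.4 CPM and 361, 371, 337 and 367 CPM (log2 fold change 2.44, SE 0.074, edgeR adjusted P = 1.93e-21). In these genes, too, the spread among the C70 libraries was small beside their distance from vehicle. The log2 fold changes of the other 6 genes of this set were 2.98 for Cdsn (corneodesmosin, an adhesion protein), 2.88 for Eno3 (the muscle form of enolase), 2.32 for Syt12 (a synaptotagmin), 2.14 for Ogn (osteoglycin, a small proteoglycan), 2.06 for Aqp1 (a water channel) and 2.05 for Ctla2a (a homologue of cathepsin propeptides). Ctla2a has a near-identical neighbour, Ctla2b, so reads may be divided between them and its value is uncertain.

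Falls were led by genes of lipid storage and of the adipocyte programme. Gpd1, which makes the glycerol 3-phosphate backbone of triglyceride (chr15:99717515-99725005), had 13.3, 16.4 and 12.3 CPM in vehicle and 3.34, 3.0, 3.22 and 2.19 CPM with C70 (log2 fold change -2.26, SE 0.15, edgeR adjusted P = 1.74e-13). G0s2, an inhibitor of the adipose triglyceride lipase (chr1:193272161-193273217), had 30.6, 34.2 and 22 CPM and 7.4, 9.15, 9.85 and 9.59 CPM (log2 fold change -1.69, SE 0.14, edgeR adjusted P = 3.43e-11). Acsl1, an acyl-CoA synthetase that activates fatty acids (chr8:46471037-46536051), had 629, 713 and 580.2 CPM and 261, 254, 278 and 250.1 CPM (log2 fold change -1.30, SE 0.052, edgeR adjusted P = 3.19e-18). The vehicle libraries spread more than the C70 libraries in these 3 genes, vehicle replicate 2 being the highest in each. No C70 library reached the lowest vehicle library, which was again a condition of the choice. Peg10, an imprinted gene derived from a retrotransposon (chr6:4747306-4760517), was the most abundant of the strongly lowered genes, with 2049, 2476 and 2216 CPM in vehicle and 789, 889, 894 and 851 CPM with C70 (log2 fold change -1.39, SE 0.11, edgeR adjusted P = 1.2e-11). Adipoq, the adipokine adiponectin (chr16:23146536-23158028), had 14.2, 16.9 and 12.8 CPM and 6.63, 6.79, 6.33 and 5.35 CPM (log2 fold change -1.22, SE 0.12, edgeR adjusted P = 1.74e-09). The set also held Lgals12 (an adipocyte galectin, -1.95 on the log2 scale), Mc5r (a melanocortin receptor, -1.55), the pseudogene Gm6166 (-1.26, uncertain because reads could come from its parent gene), Gpat3 (an acyltransferase of triglyceride synthesis, -1.22), Prlr (the prolactin receptor, -1.19) and Thrsp (a lipogenic regulator, -1.14). Lgals12 had 3.56, 3.1 and 2.07 CPM in vehicle and 0.976, 0.492, 1.41 and 0.243 CPM with C70, and Thrsp 4.2, 4.37 and 2.78 and 1.34, 1.62, 1.82 and 2.09 CPM, so both rested on low levels. Angptl7, a secreted angiopoietin-like protein, was outside the set by its mean level over all days and was noticed after its values were seen. Its mean was 70.2 CPM in vehicle and 21.1 CPM with C70 (log2 fold change -1.74, SE 0.094, edgeR adjusted P = 2.41e-15).

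**Figure D2:**
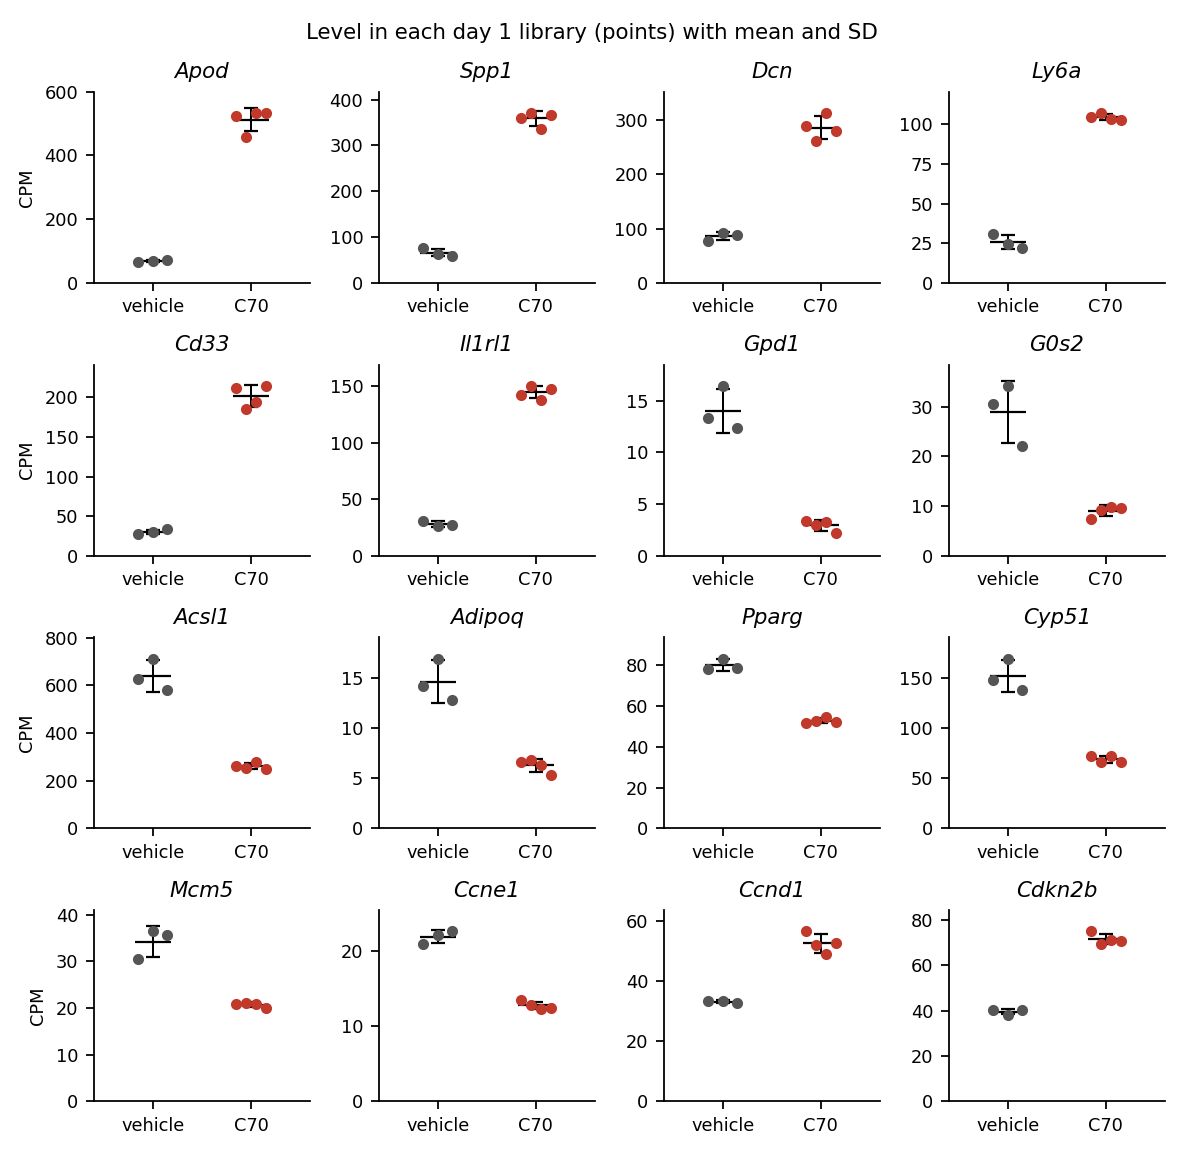
CPM in each day 1 library (y axis, from 0) for 16 genes in vehicle (grey, 3 libraries) and C70 (red, 4 libraries), with the mean as a bar and the SD as whiskers. The groups do not overlap in any of the 16 genes, some of which were chosen with that as a condition.

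Among the regulators of adipogenesis, genes of both waves moved in both directions. Cebpb, the first-wave factor C/EBPβ, had 118, 165 and 169.9 CPM in vehicle and 165, 170.5, 171 and 156 CPM with C70, and its log2 fold change of 0.13 (edgeR adjusted P = 0.528) became -0.02 without vehicle replicate 1. Cebpd, the gene for C/EBPδ, had 104, 116 and 123 CPM and 138, 145, 148 and 139 CPM, which did not overlap, but its log2 fold change of 0.32 (edgeR adjusted P = 0.0179) lay just under the fold limit and was called in 7 of the alternatives tried. Of 13 first-wave members in the table, 4 rose and 2 fell (30.8% and 15.4%, against 13.6% and 7.8% of all genes). Among them, Klf4, an early activator of Cebpb, rose from 4.93, 5.35 and 5.51 CPM to 8.94, 9.2, 9.2 and 9.2 CPM (log2 fold change 0.80, SE 0.10, edgeR adjusted P = 1.45e-07). Pparg, the gene for PPARγ (chr6:115360951-115490399), had 78.1, 83.4 and 78.6 CPM in vehicle and 51.9, 52.6, 54.6 and 52.5 CPM with C70 (log2 fold change -0.60, SE 0.055, edgeR adjusted P = 4.43e-10). Cebpa, the gene for C/EBPα (chr7:35119293-35121928), had 98.2, 118 and 113 CPM and 77.1, 78.4, 77.7 and 73.5 CPM (log2 fold change -0.52, SE 0.080, edgeR adjusted P = 5.23e-06). Both therefore had all C70 libraries below vehicle, and of the 15 second-wave members 4 fell, 1 rose (26.7% and 6.67%) and the others were not called. The difference between the waves was not tested. The coactivators Ppargc1b and Ppargc1a moved apart, with log2 fold changes of -0.72 (edgeR adjusted P = 2.11e-05) and 0.62 (edgeR adjusted P = 1.82e-05). Among genes that hold back adipogenesis or mark preadipocytes, 7 of 24 rose and 0 fell (29.2% higher, against 13.6% of all genes). Dlk1, the preadipocyte marker also known as Pref1, had 1018, 1034 and 1033 CPM in vehicle and 1347, 1424, 1299 and 1303 CPM with C70 (log2 fold change 0.39, SE 0.092, edgeR adjusted P = 0.00118).

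Of 38 PPARγ target and adipocyte product genes, 14 fell and 6 rose (36.8% and 15.8%, against 7.8% and 13.6% of all genes), with a median log2 fold change of -0.10. The falls were most frequent in fatty acid uptake, where 5 of 6 members fell and the median was -0.89, but differences between the roles were not tested. Fabp4, the fatty acid carrier of adipocytes (chr3:10204088-10208576), had 923, 929.6 and 784 CPM in vehicle and 468, 470.5, 469 and 477 CPM with C70 (log2 fold change -0.90, SE 0.076, edgeR adjusted P = 6.54e-11). Cidec, which enlarges lipid droplets, had 217, 256 and 199.6 CPM and 112, 107, 109.9 and 96.3 CPM (log2 fold change -1.08, SE 0.082, edgeR adjusted P = 6.77e-12). The C70 libraries of Fabp4 lay close together, and well below the lowest vehicle library. In the opposite direction, Pck1, an enzyme of glyceroneogenesis and gluconeogenesis, had 3.65, 3.99 and 4.62 CPM and 14.2, 5.27, 6.62 and 10.9 CPM (log2 fold change 1.19, SE 0.30, edgeR adjusted P = 0.00199), and its C70 libraries were widely spread. Rbp4, a retinol carrier and adipokine, rose from 3.7, 2.91 and 3.25 CPM to 8.53, 5.32, 5.28 and 8.95 CPM (log2 fold change 1.10, SE 0.25, edgeR adjusted P = 0.000718). Plin2, a lipid droplet coat protein that is not confined to adipocytes, also rose (log2 fold change 0.54, SE 0.054, edgeR adjusted P = 2.1e-09). It was noticed after its values were seen. Of 13 markers of mature adipocytes in the table, 9 fell and 1 rose (69.2% and 7.69%), and their summed level was 5586 to 5911 CPM in the vehicle libraries and 3524 to 3655 CPM in the C70 libraries. In bulk RNA, fewer cells that express a gene and less of its RNA per cell cannot be told apart.

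Triglyceride synthesis and fatty acid synthesis differed between enzymes rather than moving as a block. Of 30 members, 9 fell and 3 rose (30% and 10%, against 7.8% and 13.6% of all genes), and the median was -0.18. Elovl6, the elongase that makes stearate from palmitate (chr3:129532355-129638495), had 62.3, 59.6 and 69.2 CPM in vehicle and 24.8, 22, 25.6 and 26.4 CPM with C70 (log2 fold change -1.37, SE 0.078, edgeR adjusted P = 8.23e-15). Gpat3 had 75.2, 82.9 and 71.3 CPM and 33.5, 34.5, 31.4 and 31.6 CPM (log2 fold change -1.22, SE 0.076, edgeR adjusted P = 6.34e-14). Lpin1, a phosphatidate phosphatase, had 259, 275 and 259 CPM and 181, 188, 189 and 185 CPM (log2 fold change -0.51, SE 0.063, edgeR adjusted P = 1.15e-07). No C70 library of these 3 genes reached a vehicle library. Fasn and Acaca, which carry out and start fatty acid synthesis, were not called. Fasn had 908, 949.9 and 844 CPM in vehicle and 798, 816, 782 and 788 CPM with C70 (log2 fold change -0.18, edgeR adjusted P = 0.0942). Acaca had 70.8, 71.2 and 66.5 CPM and 65.5, 73.1, 69.98 and 67.9 CPM (log2 fold change -0.01, edgeR adjusted P = 0.955), and the sign of its change differed between alternatives. Gpam, a mitochondrial acyltransferase, had 102, 112 and 104 CPM and 97.5, 99.5, 100.5 and 102 CPM (log2 fold change -0.09, edgeR adjusted P = 0.351). Acacb, a paralogue of Acaca, rose (log2 fold change 0.64, SE 0.098, edgeR adjusted P = 3.86e-06), as did Lpin3, a paralogue of Lpin1 (log2 fold change 2.34, SE 0.14, edgeR adjusted P = 2.91e-14). Cpt1a and Pdk4, which favour fat oxidation over the use of pyruvate, rose as well, Cpt1a from 145, 138 and 160.4 CPM to 217, 220.3, 210.4 and 241 CPM and Pdk4 from 173, 152 and 162 CPM to 316, 312, 269.9 and 307 CPM, with log2 fold changes of 0.59 and 0.89. The genes of fatty acid and branched-chain oxidation did not rise as a group. Of 25, 2 rose and 3 fell (8% and 12%), and 20 had a log2 fold change below 0 (median -0.20).

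Among cholesterol synthesis and uptake genes, 14 of 37 fell and 4 rose (37.8% and 10.8%, against 7.8% and 13.6% of all genes). Falls were more frequent among the enzymes of synthesis (10 of 21, median -0.34) than among the genes of uptake and control (4 of 16, median 0.01), a difference that was not tested. Cyp51, the lanosterol demethylase (chr5:4081145-4104746), had 148, 169.7 and 138 CPM in vehicle and 72.3, 66.4, 72.4 and 66.2 CPM with C70 (log2 fold change -1.13, SE 0.063, edgeR adjusted P = 5.75e-15). Msmo1, which acts after Cyp51, had 48.9, 45.9 and 42.7 CPM and 27.7, 27.4, 26.1 and 23.1 CPM (log2 fold change -0.81, SE 0.074, edgeR adjusted P = 2.73e-10). These genes fell without overlap between groups. Dhcr7, the last enzyme of the pathway (chr7:143823145-143848410), moved the other way, from 69.1, 66.5 and 61.6 CPM to 118, 133, 133 and 126 CPM (log2 fold change 0.96, SE 0.063, edgeR adjusted P = 2.25e-13). Abcg1, which exports cholesterol, rose from 42.4, 38.5 and 36.6 CPM to 77.3, 82.8, 68.2 and 77.3 CPM (log2 fold change 0.96, SE 0.072, edgeR adjusted P = 4.07e-12), and Abca1, another exporter, rose as well (log2 fold change 0.51, SE 0.13, edgeR adjusted P = 0.00231). In the 250 bases upstream of the RefSeq gene starts (GRCm38.p6 windows, 9007 of the 11959 genes matched), the letters CCAAT occurred on either strand in 22 of 27 matched cholesterol genes (81.5%) and in 41.3% of all matched genes. The sterol element TCACNCCAC occurred in 1 of the 27 (3.7%), against 1.15% of all. Windows were shown only where set conditions were met, which included a match outside annotated exons and a start that opens a GENCODE transcript. Lss, the cyclase that makes lanosterol (log2 fold change -0.34, SE 0.057, edgeR adjusted P = 2.07e-05), had the largest fall among the members that met all conditions, so its window is shown. It lies at chr10:76531518-76531572 on the plus strand, from 87 to 33 bases before the start, with the single match in capitals, where ATTGG is the motif read on the opposite strand.
Lss: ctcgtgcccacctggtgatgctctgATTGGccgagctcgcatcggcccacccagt
A match describes the letters in the window and is no measurement of a bound factor.

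Cell cycle genes fell in large numbers, and the regulators of the step into S phase moved in both directions. Ccnd1, cyclin D1 (chr7:144929931-144939925), had 33.4, 33.3 and 32.6 CPM in vehicle and 56.5, 51.8, 49.1 and 52.6 CPM with C70 (log2 fold change 0.67, SE 0.084, edgeR adjusted P = 1.72e-07). Ccne1, cyclin E1 (chr7:38097984-38107534), had 21, 22.2 and 22.7 CPM and 13.5, 12.8, 12.4 and 12.5 CPM (log2 fold change -0.78, SE 0.074, edgeR adjusted P = 7.21e-10). Ccne2, cyclin E2, had 13.9, 14.8 and 13.1 CPM and 8.99, 7.88, 9.03 and 9.88 CPM (log2 fold change -0.64, SE 0.097, edgeR adjusted P = 3.42e-06). Cyclin D1 thus rose while both E cyclins fell, all without overlap between groups. Ccnd2 and Ccnd3 (which has a named pseudogene), the other D cyclins, were not called (log2 fold changes -0.15 and 0.26, edgeR adjusted P = 0.0611 and 0.00412), and neither was their partner kinase Cdk4 (0.06, edgeR adjusted P = 0.414). Of the 39 genes of G1/S control in the table, 4 rose and 13 fell (10.3% and 33.3%, against 13.6% and 7.8% of all genes). Of their 6 inhibitors of cyclin-dependent kinases, 3 rose and 1 fell (50% and 16.7%). Cdkn2b, p15, had 40.1, 38.2 and 40.3 CPM in vehicle and 75, 69.5, 71.3 and 70.7 CPM with C70 (log2 fold change 0.86, SE 0.081, edgeR adjusted P = 6.62e-10). Cdkn2a, which encodes p16 and p19, had 159, 156 and 159.8 CPM and 221, 211, 216 and 219 CPM (log2 fold change 0.46, SE 0.078, edgeR adjusted P = 2.3e-05). Of the 20 retinoblastoma and E2F family genes and partners, 8 fell and 0 rose (40% lower). Rbl1, the pocket protein p107, was among the 8 (log2 fold change -0.58, SE 0.11, edgeR adjusted P = 0.00011).

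In DNA replication, 46 of 79 genes fell and 0 rose (58.2%, against 7.8% of all genes), with a median of -0.40 against -0.01 for all genes, and in 58 of the 79 all C70 libraries lay below vehicle (23.8% of all genes). Each of the 3 roles contributed, with 15 of 27 licensing and helicase genes, 19 of 33 polymerase, clamp and ligase genes and 12 of 19 nucleotide synthesis genes lower. Cdc6, which loads the helicase at origins (chr11:98907801-98923940), had 4.11, 6.95 and 5.23 CPM in vehicle and 2.98, 2.36, 2.64 and 2.97 CPM with C70 (log2 fold change -0.98, SE 0.19, edgeR adjusted P = 0.000113). Mcm5, a subunit of that helicase (chr8:75109569-75128439), had 30.5, 36.4 and 35.8 CPM and 20.9, 21.1, 20.9 and 20 CPM (log2 fold change -0.72, SE 0.078, edgeR adjusted P = 8.73e-09). Tyms, thymidylate synthase, had 26.2, 29.8 and 29.2 CPM and 16.6, 16.4, 16.2 and 19 CPM (log2 fold change -0.73, SE 0.080, edgeR adjusted P = 1.01e-08), and its annotation has a named pseudogene that could take some of its reads. The 6 subunits of the helicase differed in extent, with log2 fold changes of -0.41 for Mcm2, -0.51 for Mcm3, -0.28 for Mcm4, -0.72 for Mcm5, -0.38 for Mcm6 and -0.11 for Mcm7. Mcm4 was under the fold limit and Mcm7 had an edgeR adjusted P of 0.106. Of 40 DNA repair and checkpoint genes, 15 fell and 0 rose (37.5% lower), and 10 of these were among the 17 genes of homologous recombination. Exo1, an exonuclease that resects DNA ends, had 7.71, 10.6 and 9.28 CPM in vehicle and 5.5, 5.37, 4.16 and 5.21 CPM with C70 (log2 fold change -0.85, SE 0.13, edgeR adjusted P = 6.74e-06). Brca1 had 17.4, 20.3 and 19 CPM and 13.6, 11.5, 10.7 and 10.5 CPM (log2 fold change -0.70, SE 0.096, edgeR adjusted P = 6.22e-07).

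Of 100 genes of mitosis and chromosome segregation, 58 fell and 0 rose (58.0% lower, against 7.8% of all genes), with a median of -0.38. The share was highest in the group of mitotic cyclins and entry kinases (8 of 11) and in the kinetochore and checkpoint group (22 of 32), and lowest in the anaphase-promoting complex (3 of 11). Differences between these groups were not tested. Ncapg2, a condensin II subunit (chr12:116405402-116463731), had 44.6, 46.8 and 41.5 CPM in vehicle and 25.2, 26.7, 26.4 and 25.3 CPM with C70 (log2 fold change -0.77, SE 0.081, edgeR adjusted P = 4.94e-09). Birc5, survivin, a subunit of the chromosomal passenger complex, had 19.4, 21.4 and 21.5 CPM and 12.5, 10.8, 16.1 and 12.2 CPM (log2 fold change -0.69, SE 0.11, edgeR adjusted P = 5.37e-06). In both genes the groups did not overlap. Cdc20, which activates the anaphase-promoting complex, had 42.1, 50.9 and 46.6 CPM and 39.5, 34.3, 40.7 and 36.3 CPM and was just under the fold limit (log2 fold change -0.30, edgeR adjusted P = 0.000803), as was Ccna2, cyclin A2 (log2 fold change -0.31, edgeR adjusted P = 0.00937). Each was called with library totals alone and without C70 replicate 1, C70 replicate 3 or vehicle replicate 1.

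**Figure D3:**
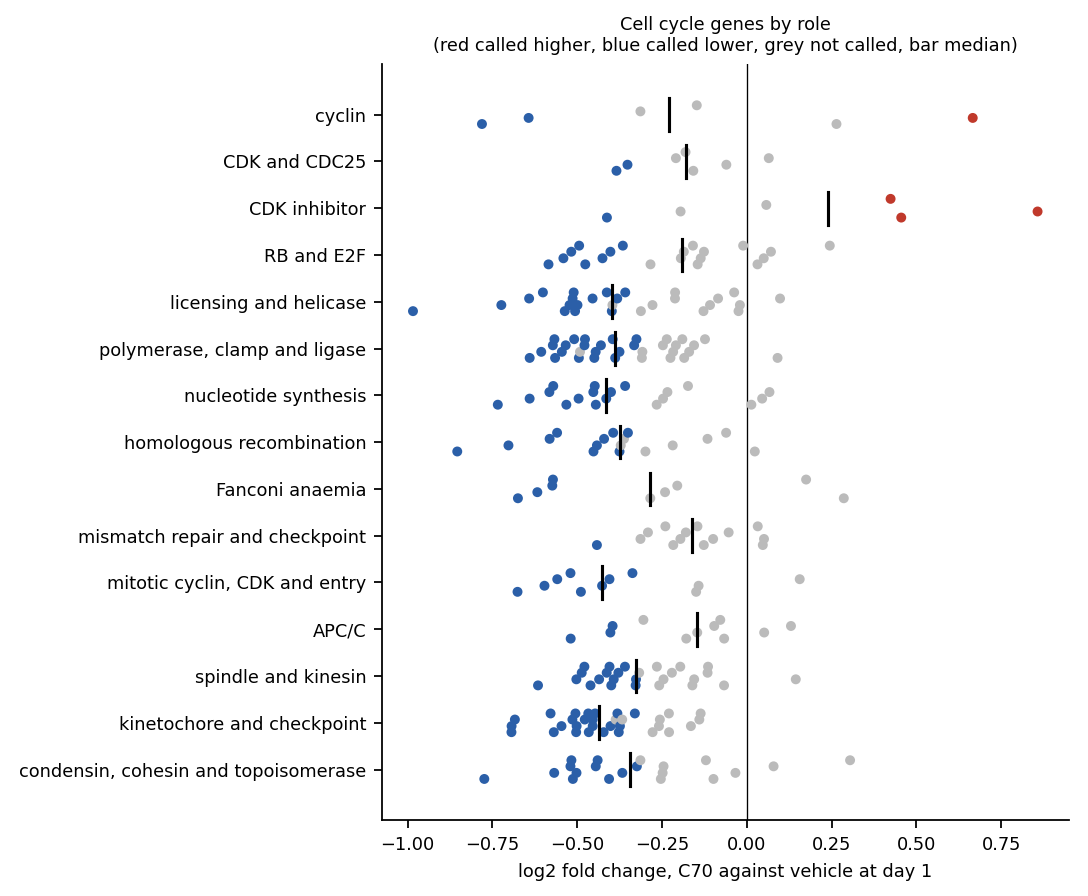
Log2 fold change of C70 over vehicle at day 1 (x axis) for each gene of 4 cell cycle lists, by role (rows), with higher genes in red, lower genes in blue, other genes in grey and the median of each role as a bar. Every role but that of the kinase inhibitors has its median below 0.

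The promoter windows of these lists were searched for 2 sequences known from cell cycle genes, the E2F site TTTNNCGC and the cell cycle homology region TTTGAA, both strands of the 250 bases upstream of the start. The E2F letters were present in 16 of 67 matched replication genes (23.9%), 7 of 28 repair genes (25%) and 15 of 84 mitosis genes (17.9%), against 8.7% of all matched genes of the table and 10.8% of all matched genes that fell. TTTGAA was present in 26 of the 84 mitosis genes (31.0%) and 10 of the 67 replication genes (14.9%), but in 1 of the 28 repair genes (3.57%), against 12.4% of all. The windows below are those of the members with the largest falls, 2 for each list, among those that met the conditions given above for Lss. Members with larger falls were passed over where no match met these conditions. For replication these were Cdc6 and Uhrf1, a factor that carries DNA methylation through replication (log2 fold change -0.57, SE 0.078, edgeR adjusted P = 7.89e-07), at chr11:98907988-98908045 and chr17:56303256-56303313 on the plus strand. For mitosis these were Ckap2l, a spindle protein (log2 fold change -0.36, SE 0.095, edgeR adjusted P = 0.00302), and Ect2, an exchange factor needed for cytokinesis (log2 fold change -0.33, SE 0.093, edgeR adjusted P = 0.0053), at chr2:129297213-129297267 and chr3:27153962-27154017 on the minus strand. Capitals mark the E2F letters in Cdc6 (GCGNNAAA, read on the other strand) and Uhrf1, and TTTGAA in Ect2 or its other strand, TTCAAA, in Ckap2l. Starts are those of RefSeq, and 78.8% of the windows of all matched genes open a GENCODE transcript. The Cdc6 stretch lies before the RefSeq start but inside the longer GENCODE span of the gene given above, outside its exons. The sequences come from RefSeq (GRCm38.p6) and read 5′ to 3′ along the gene.
Cdc6: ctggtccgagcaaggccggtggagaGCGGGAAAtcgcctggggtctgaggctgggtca
Uhrf1: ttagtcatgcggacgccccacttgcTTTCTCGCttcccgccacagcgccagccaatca
Ckap2l: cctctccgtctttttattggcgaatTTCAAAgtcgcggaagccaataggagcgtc
Ect2: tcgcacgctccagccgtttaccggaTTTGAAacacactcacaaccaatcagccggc
Most genes of each list had neither sequence in this window, and a match is not a measured binding site.

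Genes that build ribosomes fell at day 1 more often than at either neighbouring day. Falls among all 11959 genes did not peak there, numbering 369 for day 0, 933 for day 1 and 1621 for day 2. Rises numbered 704, 1631 and 2021 in the same order. Of 49 nucleolar genes, 18 fell and 0 rose at day 1 (36.7%, median -0.21), against 1 lower and 1 higher at day 0 and 0 lower and 2 higher at day 2. The C70 effect at day 1 was below that at day 0 in 16 of them and above in 0 (over all genes, 5.23% and 8.68%). The effect at day 2 was above that at day 1 in 22 and below in 0 (over all genes, 7.36% and 6.49%). Rrp9, a component of the small-subunit processome, had 24.6, 29 and 25.9 CPM in vehicle and 15.7, 17.4, 17.2 and 16.4 CPM with C70 (log2 fold change -0.67, SE 0.085, edgeR adjusted P = 1.86e-07). Nop16, a nucleolar protein, had 30.7, 33.1 and 30.5 CPM and 20.5, 20.4, 22.5 and 21.7 CPM (log2 fold change -0.57, SE 0.082, edgeR adjusted P = 1.78e-06). Nolc1, a nucleolar phosphoprotein that carries small ribonucleoproteins, had 216, 232 and 214 CPM and 149.9, 155, 159 and 155 CPM (log2 fold change -0.51, SE 0.049, edgeR adjusted P = 8.42e-10). In each of these the C70 libraries lay wholly below vehicle. Myc, a transcription factor known to act on such genes, fell too (log2 fold change -0.43, SE 0.057, edgeR adjusted P = 4.77e-07) and was picked after these values were seen. Of cytosolic ribosomal protein genes, 0 of 79 were called in either direction, with a median of -0.03 and a range of -0.26 to 0.08. Rplp0 had 1804, 1885 and 1909 CPM in vehicle and 1753, 1866, 1889 and 1859 CPM with C70 (edgeR adjusted P = 0.856), the sign of its small change differed between alternatives, and it has named pseudogenes.

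Mitochondrial genes were mostly a little lower, with few past the fold limit. Among 78 subunits of oxidative phosphorylation, 8 fell and 0 rose (median -0.17), a share of 10.3% near the 7.8% of all genes, and the number of falls was 4 without C70 replicate 1 or without vehicle replicate 2, 13 without vehicle replicate 1 and 14 with library totals alone. Cycs, cytochrome c, had 81.5, 93 and 84.8 CPM in vehicle and 52.6, 50.7, 57.7 and 54.1 CPM with C70 (log2 fold change -0.69, SE 0.069, edgeR adjusted P = 2.27e-09), and it has named pseudogenes. Of 77 mitochondrial ribosomal proteins, 9 fell (11.7%) and 0 rose, or 22 with library totals and 17 without vehicle replicate 1, and 75 of the 77 had a log2 fold change below 0. In mitochondrial metabolism and import, 17 of 77 fell and 4 rose (22.1% and 5.19%, against 7.8% and 13.6% of all genes). Idh3a, a subunit of the isocitrate dehydrogenase of the citric acid cycle (chr9:54586334-54604661), had 236, 249 and 234 CPM in vehicle and 133, 130.1, 134 and 132 CPM with C70 (log2 fold change -0.86, SE 0.044, edgeR adjusted P = 7.5e-16). Hspd1, the mitochondrial chaperonin, had 553, 618 and 558 CPM and 390.3, 387, 408 and 391.7 CPM (log2 fold change -0.55, SE 0.048, edgeR adjusted P = 1.72e-10), and it too has named pseudogenes. Both had narrow ranges in each group and no overlap. Transcripts encoded by mitochondrial DNA had a summed level of 37517 to 39126 CPM in vehicle and 38464 to 41818 CPM with C70, and of 10 in the table only the ribosomal RNA mt-Rnr2 was called. It had 853, 1172 and 1303 CPM in vehicle and 1945, 1443, 1513 and 1955 CPM with C70 (log2 fold change 0.63, SE 0.19, edgeR adjusted P = 0.00806), and without vehicle replicate 1, the lowest, it was not called (0.47). Proteasome subunits gave 4 falls (8.51%, near the 7.8% of all genes) and 0 rises of 47, with 8 falls under library totals and 7 without C70 replicate 3.

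Amino acid and stress response genes also fell more often than they rose. Of 45 members of the integrated stress response list, 10 fell and 4 rose (22.2% and 8.89%, against 7.8% and 13.6% of all genes), and 7 of the 10 were in amino acid synthesis and transport. Slc7a1, a transporter of arginine and lysine, had 30.9, 34.2 and 29.4 CPM in vehicle and 15, 13.8, 15.7 and 14.8 CPM with C70 (log2 fold change -1.09, SE 0.11, edgeR adjusted P = 4.97e-09). Nupr1, a stress-induced nuclear protein, had 22.9, 26.8 and 25.9 CPM and 12.5, 11.9, 12 and 12.7 CPM (log2 fold change -1.04, SE 0.088, edgeR adjusted P = 7.24e-11). Pycr1, an enzyme of proline synthesis, went the other way, from 9.95, 9.96 and 10.1 CPM to 27, 24.1, 26.4 and 27.5 CPM (log2 fold change 1.39, SE 0.083, edgeR adjusted P = 2.23e-14). The groups did not overlap in these genes. Unfolded protein response genes and chaperones had 3 rises and 2 falls of 34, NRF2 and glutathione genes 6 and 4 of 37, and glycolysis and hypoxia genes 6 and 2 of 39, shares near those of all genes.

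Matrix genes other than collagens rose in large numbers. Of 54, 32 rose and 2 fell (59.3% and 3.7%, against 13.6% and 7.8% of all genes), with a median of 0.39. By role, 19 of 34 matrix proteins and 13 of 20 proteases and inhibitors rose. Dcn, decorin, a collagen-binding proteoglycan (chr10:97479609-97518143), had 77.2, 91.1 and 88.4 CPM in vehicle and 289, 261, 313 and 280.5 CPM with C70 (log2 fold change 1.74, SE 0.090, edgeR adjusted P = 1.1e-15). Ogn had 11.2, 10.7 and 12 CPM and 55.9, 41.5, 51.5 and 51 CPM (log2 fold change 2.14, SE 0.11, edgeR adjusted P = 1.75e-15). Timp4, an inhibitor of metalloproteinases, was at low levels, 0.274, 0.611 and 0.235 CPM in vehicle and 2.06, 1.62, 2.7 and 1.46 CPM with C70 (log2 fold change 2.35, SE 0.35, edgeR adjusted P = 2.17e-06). The lowest C70 library was above the highest vehicle library in all 3. Adamts15 and Adamts12, which are secreted proteases, were the 2 falls (log2 fold changes -0.56 and -0.42, edgeR adjusted P = 1.61e-06 and 0.000922). Of 42 collagens and their enzymes, 12 rose and 3 fell (28.6% and 7.14%), and the share of falls was near the 7.8% of all genes. By type, 6 of 10 microfibrillar and associated collagens, 2 of 5 basement membrane and network collagens, 3 of 18 processing enzymes and 1 of 9 fibrillar collagens rose, and the 3 falls were fibrillar. A difference between the types was not tested, and each of the 3 falls lost its call without C70 replicate 1. Col23a1, a transmembrane collagen, rose from 3.79, 4.74 and 4.05 CPM to 19.6, 22.6, 21.8 and 20.1 CPM (log2 fold change 2.33, SE 0.098, edgeR adjusted P = 1.03e-17). Col1a1, the main fibrillar chain, had 3131, 3510.2 and 3545 CPM in vehicle and 2436, 2898, 2746 and 2583 CPM with C70 (log2 fold change -0.35, SE 0.086, edgeR adjusted P = 0.00154). Col1a1 lost its call without C70 replicate 1 (-0.30) or vehicle replicate 3 (-0.32), Col11a1 (main value -0.34) without C70 replicate 1 (-0.32) or vehicle replicate 2 (-0.32), and Col5a2 (main value -0.33) without C70 replicate 1 (-0.30) or vehicle replicate 2 or 3 (-0.31 and -0.29).

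Signalling genes around the matrix rose more often than they fell. In the TGFβ and BMP list, 19 of 48 rose and 2 fell (39.6% and 4.17%, against 13.6% and 7.8% of all genes), and the antagonists and matrix stores had 9 rises of 14 (median 0.49). Nbl1, a secreted BMP antagonist, had 12, 13.2 and 16.9 CPM in vehicle and 32.1, 33.5, 30.5 and 33.1 CPM with C70 (log2 fold change 1.20, SE 0.12, edgeR adjusted P = 1.04e-09). Inhba, the activin A subunit, had 12.6, 10.8 and 11.2 CPM and 24, 18.9, 20.6 and 19.7 CPM (log2 fold change 0.85, SE 0.11, edgeR adjusted P = 3.7e-07). Tgfb3, a TGFβ ligand, fell from 41, 44.5 and 41.6 CPM to 27.1, 25.8, 27.9 and 28.6 CPM (log2 fold change -0.63, SE 0.059, edgeR adjusted P = 5.82e-10). In the Wnt list, 10 of 32 rose and 1 fell (31.2% and 3.12%). Dkk3, a secreted protein of the Dickkopf family, had 5.34, 6.01 and 6.41 CPM and 21, 22.4, 22.1 and 25.1 CPM (log2 fold change 1.94, SE 0.13, edgeR adjusted P = 3.14e-13). Wnt6, a ligand that holds back adipogenesis, was at low levels, 1.0, 2.44 and 1.55 CPM in vehicle and 4.16, 3.79, 2.93 and 3.31 CPM with C70 (log2 fold change 1.10, SE 0.20, edgeR adjusted P = 3.92e-05). Fzd5, a Wnt receptor, was the fall (-0.48). In Nbl1, Inhba, Tgfb3, Dkk3 and Wnt6 no C70 library lay within the vehicle range. Among contractile and YAP or TEAD target genes 14 of 35 rose (40%) and 0 fell, led by Tagln, a smooth muscle actin-binding protein, at 1.42, 0.939 and 1.04 CPM in vehicle and 6.58, 4.92, 6.1 and 6.28 CPM with C70 (log2 fold change 2.39, SE 0.19, edgeR adjusted P = 1.84e-11).

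Insulin and IGF pathway genes showed 5 rises and 3 falls of 32, of which 3 and 1 were ligands and binding proteins. These shares (15.6% and 9.38%) lie near those of all genes (13.6% and 7.8%). Igfbp6 rose from 5.43, 6.29 and 6.78 CPM to 30.8, 29.3, 30.7 and 35.5 CPM (log2 fold change 2.36, SE 0.14, edgeR adjusted P = 1.12e-14). Igfbp3 rose from 0.548, 0.47 and 0.471 CPM to 3.96, 2.81, 3.11 and 2.97 CPM (log2 fold change 2.67, SE 0.23, edgeR adjusted P = 1.27e-10). Igfbp4, by far the most abundant of the 3, fell from 1817, 2059 and 2091 CPM to 1224, 1262, 1220.0 and 1190.0 CPM (log2 fold change -0.70, SE 0.061, edgeR adjusted P = 1.06e-10). All bind IGF in the medium, and in none did a C70 library fall within the vehicle range. The growth factor itself, Igf1, had 35, 36.2 and 37.1 CPM in vehicle and 62.5, 50.6, 57.7 and 55.1 CPM with C70 (log2 fold change 0.64, SE 0.082, edgeR adjusted P = 1.88e-07). Akt2, a kinase of the insulin pathway, fell (log2 fold change -0.36, SE 0.043, edgeR adjusted P = 9.03e-08, with a named pseudogene that could take reads), but not past the fold limit without vehicle replicate 2 (-0.31).

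In both immune response lists a part of the genes rose and 0 fell. Of 38 cytokine and inflammation genes, 24 rose and 0 fell (63.2%, against 13.6% of all genes), with a median of 0.46. Beside Il1rl1, Ccl9, a chemokine, had 2.92, 2.63 and 1.93 CPM in vehicle and 11.3, 12.2, 9.49 and 11.2 CPM with C70 (log2 fold change 2.15, SE 0.15, edgeR adjusted P = 5.15e-13), and Saa3, an acute-phase protein, had 13.3, 12 and 11.2 CPM and 42, 51, 35.9 and 45.1 CPM (log2 fold change 1.84, SE 0.13, edgeR adjusted P = 2.4e-12). Of 50 interferon-stimulated and antigen presentation genes, 24 rose and 0 fell (48.0%), with a median of 0.41, and of the 26 not called 12 had a log2 fold change below 0. Oas2, an interferon-induced sensor of double-stranded RNA, had 2.37, 1.55 and 0.659 CPM in vehicle and 13.6, 11.8, 5.98 and 8.13 CPM with C70 (log2 fold change 2.69, SE 0.30, edgeR adjusted P = 1.98e-08). Ifi44, an interferon-induced protein, had 9.08, 8.59 and 8.01 CPM and 39.9, 33.2, 31.3 and 34 CPM (log2 fold change 2.01, SE 0.15, edgeR adjusted P = 3.54e-12). Ifit2, an interferon-induced protein that binds RNA, had 1.96, 1.88 and 1.08 CPM and 4.93, 3.84, 2.58 and 3.21 CPM (log2 fold change 1.15, SE 0.21, edgeR adjusted P = 5.71e-05). The groups did not overlap, although Oas2 and Ifit2 varied more between replicates than most genes given here. At day 0, 13 of the 50 were lower and 4 higher after C70, with a median of -0.14, while 369 of all 11959 genes were lower and 704 higher. The effect at day 1 was above that at day 0 in 30 of the 50 and below in 1 (over all genes, 8.68% and 5.23%).

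Levels of these interferon genes also differed between days. Ifi44 had 94.3 ± 6.11 CPM in vehicle (SD, n = 3) and 84.9 ± 9.4 CPM with C70 (SD, n = 4) at day 0, and 8.56 ± 0.537 and 34.6 ± 3.7 CPM at day 1. Oas2 had 58.9 ± 8.3 and 83.4 ± 10.3 CPM at day 0, and 1.53 ± 0.857 and 9.86 ± 3.44 CPM at day 1. Both genes thus had lower means at day 1 than at day 0 in both groups, and the C70 libraries kept more of the day 0 level.

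Markers of other cell types were few in the table. Of 14 immune cell markers 2 were present, and both rose. Cd68, a lysosomal protein of macrophages that other cells also make, had 2.01, 1.88 and 1.74 CPM in vehicle and 13.8, 13.6, 13.9 and 15.1 CPM with C70 (log2 fold change 2.90, SE 0.14, edgeR adjusted P = 3.26e-16), and Cd14 had 2.88, 2.21 and 2.78 CPM and 3.9, 4.08, 3.46 and 5.16 CPM (log2 fold change 0.67, SE 0.16, edgeR adjusted P = 0.00105). The summed level of the pair was 4.09 to 4.88 CPM in vehicle and 17.4 to 20.2 CPM with C70, and the other 12 markers were not analysed here. The part of immune cells in the rises of cytokine and interferon genes was not tested. Of 11 endothelial markers 2 were present, Flt1 and Egfl7, and both rose (0.99 and 0.78). Of 12 skeletal muscle markers only Des was present, and it rose (1.51) from 1.82, 2.58 and 2.03 CPM to 7.24, 5.51, 5.45 and 6.28 CPM. None of 12 epithelial markers was in the table. Of 20 fibroblast and preadipocyte markers 16 were in the table, and they summed to 22390.0 to 23308 CPM in vehicle and 25342 to 27115 CPM with C70. This sum includes abundant genes such as Col1a1 and does not give the level of each marker. Of these 16, 6 rose and 1 fell (37.5% and 6.25%, against 13.6% and 7.8% of all genes). Ly6a (Sca-1, a surface protein of mesenchymal progenitors) rose most, from 30.5, 24.6 and 22.2 CPM to 105, 107, 103 and 102 CPM (log2 fold change 2.02, SE 0.11, edgeR adjusted P = 8.33e-15). Thy1 rose as well, from 54.1, 48 and 48 CPM to 132, 144, 132 and 136 CPM (log2 fold change 1.44, SE 0.12, edgeR adjusted P = 6.43e-11).

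Among genes known to respond to the dexamethasone and the cAMP-raising IBMX of the medium, more rose than fell. Of 30 genes known to respond to dexamethasone, 8 rose and 1 fell, and of 21 cAMP response genes 7 rose and 1 fell. These are 26.7% and 33.3% higher and 3.33% and 4.76% lower, beside 13.6% and 7.8% of all genes. Saa3, given above, Hsd11b1 and Lcn2 were the 3 largest rises of the dexamethasone list. Lcn2, lipocalin 2, had 80.3, 83.2 and 76.9 CPM in vehicle and 245, 222, 229 and 234 CPM with C70 (log2 fold change 1.54, SE 0.084, edgeR adjusted P = 3.29e-15). Sgk1, a kinase induced by glucocorticoids, was the fall, from 66.1, 64.8 and 66 CPM to 51.9, 51.2, 49.5 and 49.9 CPM (log2 fold change -0.37, SE 0.040, edgeR adjusted P = 7.13e-09). Among cAMP targets, Fos rose from 4.47, 3.76 and 3.86 CPM to 6.22, 6.69, 6.27 and 6.57 CPM (log2 fold change 0.67, SE 0.13, edgeR adjusted P = 0.000109), and Fosl2, of the first-wave list, from 126, 122 and 126 CPM to 221, 229.7, 208 and 218 CPM (log2 fold change 0.81, SE 0.069, edgeR adjusted P = 7.24e-11). Hsd11b1, which regenerates active glucocorticoid in fat cells, rose from 7.35, 7.09 and 5.51 CPM to 19.4, 18.7, 21.9 and 20.3 CPM (log2 fold change 1.59, SE 0.12, edgeR adjusted P = 5.22e-12). Its C70 effect was already present at day 0, before dexamethasone, at 1.03 ± 0.463 CPM in vehicle (SD, n = 3) and 17.6 ± 1.73 CPM with C70 (SD, n = 4), and was smaller at day 1 (difference of log2 fold changes -2.51, SE 0.24, edgeR adjusted P = 5.41e-09). Of the 30 genes of the dexamethasone list 5 were higher and 1 lower at day 0, beside 704 and 369 of all 11959 genes. Of 27 p53 targets 9 rose and 1 fell (33.3% and 3.7%, beside the same shares of all genes). Eda2r, a death receptor of the TNF family, rose from 24.6, 17.9 and 24 CPM to 40.6, 41.9, 39.3 and 42.9 CPM (log2 fold change 0.90, SE 0.084, edgeR adjusted P = 6.4e-10), and Btg2, an inhibitor of proliferation, from 8.71, 9.25 and 9.85 CPM to 14.3, 15.7, 18.8 and 16.8 CPM (log2 fold change 0.82, SE 0.077, edgeR adjusted P = 5.38e-10). Of 19 clock genes 7 rose and 2 fell (36.8% and 10.5%), with Dbp (0.91) and Nr1d1 (0.69) among the rises and Cry1 (-0.64) and Per2 (-0.39) as the falls.

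The KDM5 genes themselves were not called. Kdm5a had 176, 181 and 182 CPM in vehicle and 199, 204, 192 and 198 CPM with C70 (log2 fold change 0.14, edgeR adjusted P = 0.223). Kdm5b had 135, 139 and 137 CPM and 148, 163, 154 and 157 CPM (log2 fold change 0.19, edgeR adjusted P = 0.00582), a difference without overlap but under the fold limit. Kdm5c had 179.9, 183 and 173 CPM and 182, 179.9, 179.8 and 175 CPM (edgeR adjusted P = 0.976), and the sign of its change near 0 differed between alternatives. C70 acts on the enzymes and not on their transcripts, so these levels do not check the treatment. Of 20 H3K4 methyltransferase and COMPASS genes, 2 fell and 0 rose (10.0% lower, near the 7.8% of all genes), namely Paxip1, an adaptor protein (-0.36), and Setd1b, a methyltransferase (-0.35). Paxip1 was not called without C70 replicate 1 (-0.32). Of 319 zinc finger protein genes named Zfp, 27 rose and 4 fell, both below the shares of all genes. Of 17 neuronal genes 7 rose (41.2%) and 0 fell. Of 25 imprinted genes 5 rose and 2 fell (20% and 8.0%, near the 13.6% and 7.8% of all genes), the falls being Peg10 and Mest (Mest -0.39, and not called without vehicle replicate 3, -0.29).

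**Figure D4:**
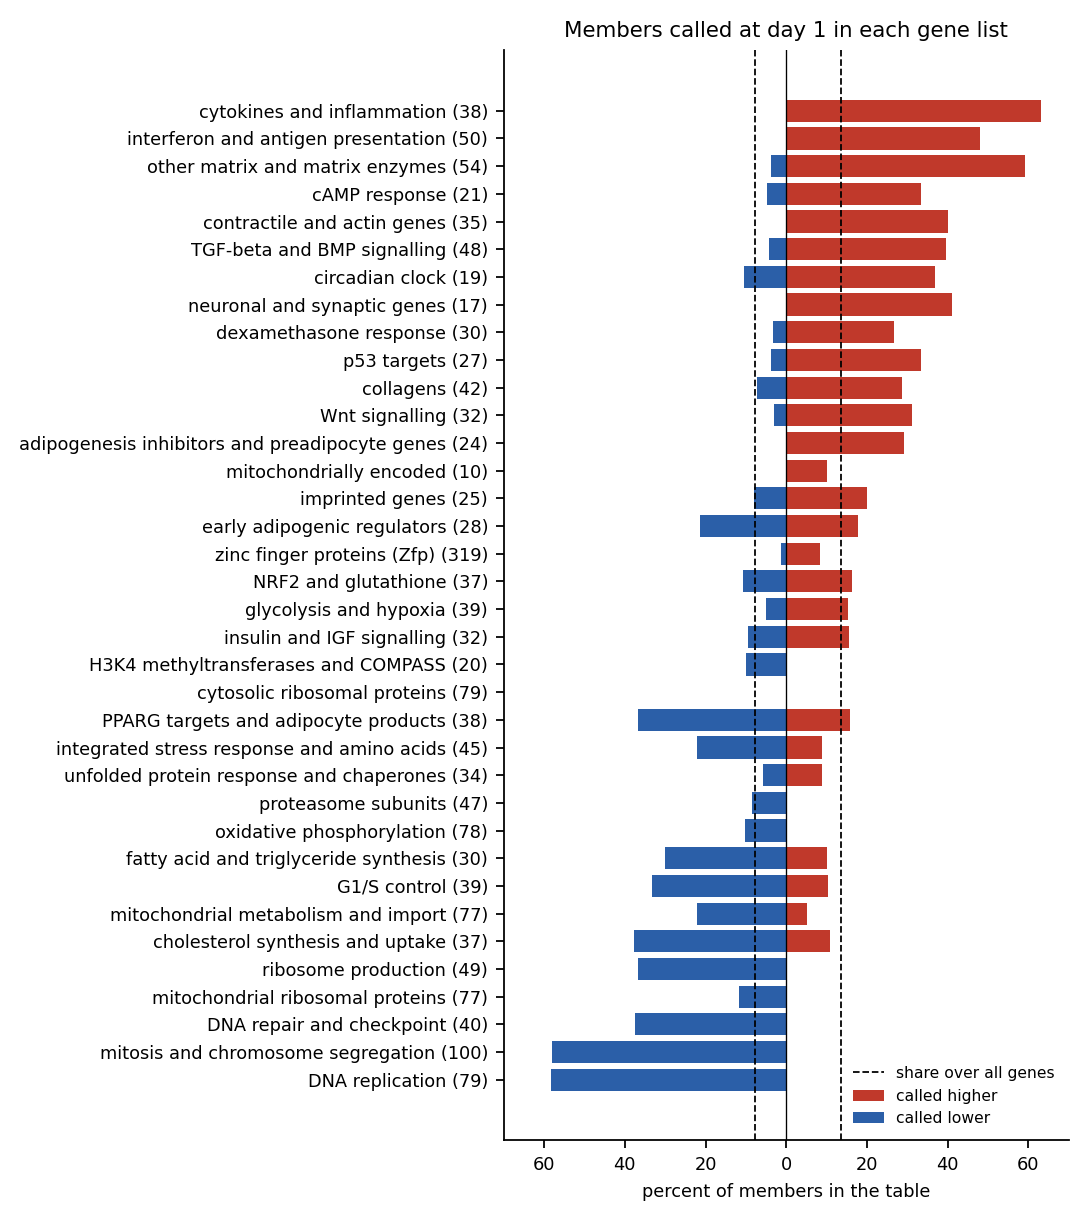
Percent of the members in the table that were called higher (red, right) or lower (blue, left) at day 1 in each gene list (rows, with the number of members in brackets, ordered by median log2 fold change), with dashed lines at the shares over all genes, 13.6% higher and 7.8% lower. DNA replication and mitosis reach 58% lower with no member higher, and cytokines and inflammation reach 63.2% higher with no member lower.

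Against day 0, when the compound was still present, the C70 effect differed in many genes. The effect at day 1 was above that at day 0 in 1038 genes (8.68%) and below in 625 (5.23%). Of the 1631 genes higher at day 1, 782 had an effect above that of day 0, and of the 933 lower, 360 had one below it. Calls were shared in part. Of the genes higher at day 1, 495 were also higher at day 0 (30.3% of the day 1 genes and 70.3% of the 704 higher at day 0). Of the genes lower at day 1, 119 were also lower at day 0 (12.8%, and 32.2% of the 369 lower at day 0). At day 0 the median log2 fold change was 0.21 for the genes that rose at day 1 and -0.11 for those that fell. Spp1 had 1292 ± 68.8 CPM in vehicle (SD, n = 3) and 1088 ± 44.2 CPM with C70 (SD, n = 4) at day 0, and 66.2 ± 8.41 and 359 ± 15.5 CPM at day 1. The C70 effect moved up between the 2 days (difference of log2 fold changes 2.69, SE 0.097, edgeR adjusted P = 1.54e-18). Dcn had 424 ± 65.9 and 375 ± 20.6 CPM at day 0 and 85.6 ± 7.34 and 286 ± 21.5 CPM at day 1 (difference of log2 fold changes 1.92, SE 0.12, edgeR adjusted P = 1.13e-12). In both genes the vehicle mean at day 1 was far below its day 0 level, and the C70 mean was closer to it. Gpd1 and Acsl1 had the reverse order. Gpd1 had 1.23 ± 0.396 and 1.51 ± 0.138 CPM at day 0 and 14 ± 2.14 and 2.94 ± 0.518 CPM at day 1 (difference of log2 fold changes -2.52, SE 0.31, edgeR adjusted P = 4.06e-07). Acsl1 had 32.9 ± 2.07 and 39.2 ± 0.425 CPM at day 0 and 641 ± 67.1 and 261 ± 12.3 CPM at day 1 (difference of log2 fold changes -1.55, SE 0.080, edgeR adjusted P = 1.09e-14). For these the vehicle mean had risen by day 1 more than the C70 mean. Fabp4 and Pparg were already lower with C70 at day 0, but most other adipocyte genes were not. Of the 38 PPARγ target and adipocyte product genes, 4 were higher and 2 lower at day 0 (median 0.07). Of the 13 markers of mature adipocytes, 1 was higher and 2 were lower (median 0.18). Over all 11959 genes, 704 were higher and 369 lower at day 0. Cebpa was among the genes called higher at that day (log2 fold change 0.39). Fabp4 had 50.6 ± 0.879 CPM in vehicle and 38 ± 2.23 CPM with C70 at day 0, and its effect was larger at day 1 (difference of log2 fold changes -0.49, SE 0.11, edgeR adjusted P = 0.00251). Pparg had 53.4 ± 2.58 and 37.8 ± 2.16 CPM at day 0, and its effect did not differ past the threshold between the 2 days (difference of log2 fold changes -0.10, SE 0.080, edgeR adjusted P = 0.438). Of the 38 PPARγ target and adipocyte product genes, 13 had an effect at day 1 below that of day 0 and 5 one above it, and of the 13 markers of mature adipocytes 6 had one below and 0 one above. The same vehicle libraries of day 1 enter both the change over time and the C70 comparison, so these levels are set side by side and no relation between them is given.

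Between day 1 and day 2, 880 genes (7.36%) had a higher and 776 (6.49%) a lower C70 effect at the later day. Of the genes higher at day 1, 1183 were also higher at day 2 (72.5%, and 58.5% of the 2021 higher at day 2), and of those lower, 581 were also lower (62.3%, and 35.8% of the 1621). Peg10 had 2247 ± 215 CPM in vehicle (SD, n = 3) and 855 ± 48.4 CPM with C70 (SD, n = 4) at day 1, and 2576 ± 223 and 2156 ± 59.4 CPM at day 2, where it was not called (log2 fold change -0.26, SE 0.11, edgeR adjusted P = 0.0495, under the fold limit). Dhcr7 had 65.8 ± 3.81 and 128 ± 7.16 CPM at day 1 and 180.1 ± 9.83 and 149 ± 3.96 CPM at day 2, a change of sign (difference of log2 fold changes -1.23, SE 0.086, edgeR adjusted P = 3.04e-11). Crocc2 went on diverging, with 9.61 ± 1.09 and 277 ± 5.95 CPM at day 2 (difference of log2 fold changes 1.90, SE 0.12, edgeR adjusted P = 1.07e-11). In mitosis, 58 of 100 members fell at day 1 and 80 at day 2, and the effect at day 2 was below that at day 1 in 33 and above in 1. In DNA replication 46 of 79 fell at day 1 and 43 at day 2, and 1 had a lower and 3 a higher effect at day 2. The cholesterol list had 14 lower of 37 at day 1 and 24 at day 2, with 20 effects further down.

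**Figure D5:**
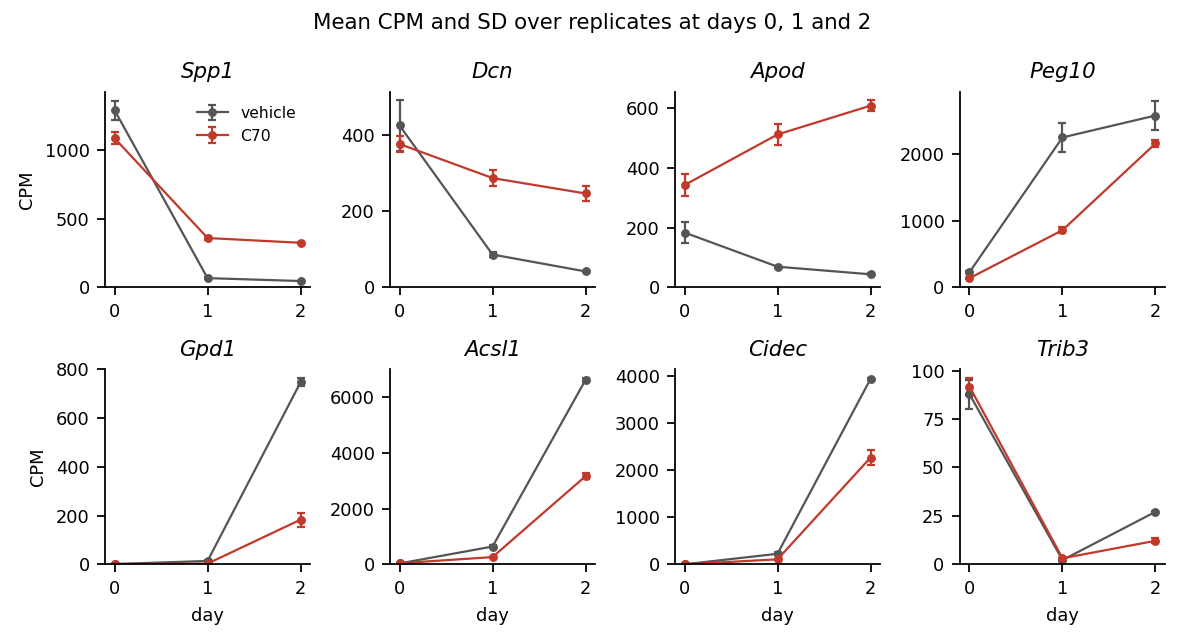
Mean CPM (y axis, from 0) at days 0, 1 and 2 (x axis) in vehicle (grey, 3 replicates a day) and C70 (red, 4 replicates a day) for 8 genes, with the SD as whiskers. In Spp1 and Dcn the C70 mean is below vehicle at day 0 and above it at day 1, Peg10 is furthest apart at day 1, and Trib3 lies close in both groups at days 0 and 1 and apart at day 2.

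A set of 492 genes was called at day 1 and at none of days 0, 2 and 7, of which 253 were higher and 239 lower. In 66 of them (31 higher and 35 lower) the effect at day 1 also differed from that at day 0 and from that at day 2. The genes named here from this set were chosen after their values were seen, except those already described. Among the 31 were Cacng7, an auxiliary calcium channel subunit (log2 fold change 1.26, SE 0.080, edgeR adjusted P = 9.05e-14), Dysf, a membrane repair protein (log2 fold change 0.75, SE 0.086, edgeR adjusted P = 3.19e-08), and Irf7 and Usp18, an interferon regulator and an interferon-induced protease (0.61 and 0.73). Among the 35 were Igfbp4, Nolc1, Nop16 and Myc of the paragraphs above, and Nop56, Nop2 and Ddx21, which act in ribosome assembly (-0.42, -0.38 and -0.36). Srm, an enzyme of polyamine synthesis, and Ctps, which makes CTP, belonged to them too (-0.58 and -0.53).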

How the data were processed

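RNA libraries of 29 samples, 7 of them from day 1, were analysed from the raw whole-number counts per gene that the authors deposited. By their methods and processing notes, strand-specific libraries, made with an mRNA kit per the labels but called total RNA-sequencing in the study's text, were aligned with STAR 2.7.2a to GRCm38 with Ensembl 97 genes. Which program counted reads, whether strand was used and how the table was reduced to 11959 genes are not given in the sources used here. The table had 0 columns without a sample and 0 rows that name no gene, and 11953 genes received a symbol from GENCODE M21.

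Counts were normalised by TMM and fitted by quasi-likelihood in edgeR 4.0.16 (R 4.3.3) with 8 groups of day and treatment, so that all libraries share the estimate of spread. The C70 effect at day 1 and its difference from days 0 and 2 were tested two-sided, with Benjamini-Hochberg adjustment over all genes. Genes were called at an adjusted P below 0.05 and a log2 fold change over 0.32 in size. Total counts of 16433737 to 20268764 per day 1 library limit the precision of genes near 1 CPM. Genes named in the text were the 12 largest non-overlapping rises and falls among called genes above the median mean level (32.4 CPM over 29 libraries), up to 3 rises and 3 falls per gene list, the 5 largest differences in each direction between days, and fixed regulators. Others are said to have been picked later. Members and gene lists were chosen with earlier results of these data known. The procedure was tested on simulated data in which 200 of 11959 genes were changed, and it recovered 88% of the 1.5-fold and 100% of the 2-fold changes, with 5 false calls. These data had no differences between days, and far fewer genes changed than were called here, in random directions. The simulation therefore does not test how the scaling affects the share of rises. Alternatives covered scaling, DESeq2 1.42.0, limma 3.58.1, filters, thresholds, a replicate term and the omission of single libraries. Some results that met these rules are not reported here.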

Additional observations from a re-analysis of the deposited data

Results flagged for a closer look

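In 8 of 202 sets of 4 C70 libraries, 1 library lay apart from the other 3 by Dixon's test, and about 1 in 20 sets (10.1) would do so by chance. These were Apod at 459.5 CPM, Chrd at 1.034 CPM and Tdrkh at 4.725 CPM in replicate 2, Klf4 at 8.938 CPM in replicate 1, Mcm3 at 29.66 CPM and Mrps7 at 41.26 CPM in replicate 3, and Lmod1 at 1.947 CPM and Tyms at 19.03 CPM in replicate 4.

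The C70 effect at day 1 differed from that at day 0 by interaction tests (edgeR, differences of log2 fold changes), with low values in Mc5r (-5.56), G0s2 (-3.509), Lgals12 (-3.405) and Gpd1 (-2.524). The day 0 means of Mc5r, Lgals12 and G0s2 were at or near 0 CPM (for G0s2, 0.312 CPM in vehicle and 1.11 CPM with C70), so these fitted differences depend on the prior count and are not bounds. Among called genes above the median mean level (32.4 CPM over 29 libraries), the highest values were those of Spp1 (2.688), Ogn (2.081), Apod (1.997), Dcn (1.916) and Il1rl1 (1.878). Oas2 (2.192) and Ifi44 (2.166), with mean levels below that limit, also lay above Ogn.

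Between day 1 and day 2, among called genes above the same level, the lowest differences were in Cdsn (-2.813), Prelp (-1.654), Apol6 (-1.652), Trib3 (-1.644) and Mcam (-1.509). The highest were in Crocc2 (1.896), Aqp1 (1.81), Lgals12 (1.344), Sparcl1 (1.33) and C1s1 (1.328).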

How the results depend on the processing

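The numbers of genes higher and lower at day 1 were 1624 and 943 with relative log expression factors, 1636 and 931 with upper quartile factors, 1693 and 923 with fewer days in the fit, 1636 and 951 in DESeq2 and 1582 and 878 in limma-trend. They were 1031 and 599 without the lowest quartile of genes by mean level. With no fold limit they were 2514 and 2351, at 1.5-fold 895 and 196, and at 2-fold 380 and 26. The genes whose effect differed from day 0 numbered 668 at 1.5-fold and 190 at 2-fold, and from day 2 they numbered 638 and 156. Leaving out 1 library gave 1510 to 1666 higher and 776 to 1029 lower, the lowest count of falls without vehicle replicate 2 and the highest without vehicle replicate 1.

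Same-numbered samples of the 2 groups correlated at 0.0891, -0.0398 and 0.0569 in their deviations from the group means. Differently numbered samples ranged from -0.122 to 0.112. With so few libraries, these values cannot show whether samples of the same number shared a culture or a day. With the replicate number as a block, the counts were 1669 and 882 with fewer days and 1613 and 904 with all groups.

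Signs turned only near 0. Scaling by library totals moved the median of all genes from -0.01 to -0.06 and gave Kdm5c -0.0539, Rpl4 -0.0002406 and Sox9 -0.01586, and list medians of -0.01406 (NRF2), -0.01608 (glycolysis and hypoxia), -0.03459 (insulin and IGF) and -0.01375 (Zfp). Without the lowest quartile, Acaca was 0.01132, Rplp0 0.0004067 and the COMPASS median 0.006007. With a replicate block and fewer days together, Acaca was 0.004705, and with the block in all groups Kdm5c was -0.008234. With 1 library left out, the ranges were -0.03869 to 0.0231 for Acaca, -0.01899 to 0.225 for Cebpb, -0.01974 to 0.02228 for Kdm5c, -0.04312 to 0.01017 for Rplp0, -0.03292 to 0.002885 for the COMPASS median and -0.0148 to 0.1101 for the glycolysis median. Of 3183 values of 201 named genes under alternatives, 3094 kept their direction and side of the threshold, 55 lost a call, 20 gained one and 14 changed sign. Counts of called genes in the lists moved by over 1.5 times in 200 of 1672 values, and list medians moved in 89 and changed sign in 7 of 702. The cause was not tested.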

Other observations

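Calls were spread over the chromosomes. The share of genes that rose at day 1 ranged from 11.4% to 15.9% over the autosomes and the X chromosome. The share that fell ranged more widely, from 12 of 304 genes (3.95%) on chromosome 18 to 100 of 795 (12.6%) on chromosome 5, where falls outnumbered the 91 rises. This was noticed in the data and no test was made of it. Of the 26 germline genes listed, 2 were in the table and 1 rose. Of 12 chondrocyte and osteoblast markers, 3 were in the table and 0 were called, with summed levels of 130.4 to 136 CPM in vehicle and 131.9 to 142.9 CPM with C70.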
